A study of Mus musculus with 36 samples.

Results

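Immunity-related GTPases are a family of interferon-inducible proteins of the mouse, and their transcripts were followed here in macrophages in which the clock protein BMAL1 was targeted by a small molecule, deleted, or both, with and without an inflammatory stimulus. The family was represented by the 7 rows of the count table named Irgm1, Irgm2, Igtp, Iigp1, Ifi47, Tgtp1 and Tgtp2, out of 54532 genes counted. All 7 had reads in the table. The rule that finds them uses the gene name alone, and no measured value.

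Gene counts came from RNA-seq of bone marrow-derived macrophages (BMDMs), that is, marrow cells of C57BL/6 female mice aged 13 to 17 weeks grown for 7 days with the growth factor MCSF. The 24 knockout (KO) libraries carried 2 floxed Bmal1 alleles and Cre recombinase driven by the LysM promoter, which is active in myeloid cells, and the 12 wild-type (WT) libraries carried the same floxed alleles without Cre, so that floxed Bmal1 was common to both genotypes. Cells received for 6 h the solvent DMSO (vehicle), 100 µM of CCM (Core Circadian Modulator, a compound that binds a PAS domain of BMAL1), 100 nM of lipopolysaccharide (LPS, the bacterial cell-wall component sensed by TLR4), or LPS and CCM together, with 3 WT and 6 KO libraries for each treatment. The comparisons ask what CCM did to the response to LPS, and whether the genotype altered it.

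These GTPases belong to cell-autonomous immunity, in which an infected cell attacks a pathogen inside itself. After induction by interferons, the effector members (Iigp1, also called Irga6, Ifi47, also called Irgd, and Tgtp1 and Tgtp2, which encode Irgb6 proteins) gather on the membrane of vacuoles that shelter parasites such as Toxoplasma gondii and disrupt it. The regulatory members (Irgm1, Irgm2 and Igtp, also called Irgm3) sit on the cell's own membranes and hold the effectors inactive there. In macrophages LPS leads to secretion of type I interferon, which acts back on the same cells through their interferon receptors.

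The sequences just upstream of the RefSeq starts are shown because the known routes of induction of this family run through 2 promoter elements, the interferon-stimulated response element (ISRE, searched as GAAANNGAA) and the gamma-activated site (GAS, searched as TTCNNNGAA, which reads the same on both strands), where N is any base. Both strands were searched in windows from 250 bases before to 50 after the start of each gene (RefSeq, build GRCm38.p6), and 6 of the 7 members had an entry. The 86 bases from 100 to 15 before the start are printed 5′ to 3′ on the gene's strand, with matches in capitals. For Irgm1, Irgm2 and Tgtp1 the RefSeq start, and with it the stretch shown, lies inside the longer gene interval used for counting.
Irgm1, chr11:48871435-48871520, minus strand: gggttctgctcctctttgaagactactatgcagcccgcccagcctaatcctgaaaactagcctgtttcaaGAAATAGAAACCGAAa
Irgm2, chr11:58214877-58214962, plus strand: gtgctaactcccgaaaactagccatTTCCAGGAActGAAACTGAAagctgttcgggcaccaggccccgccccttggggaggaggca
Igtp, chr11:58199456-58199541, plus strand: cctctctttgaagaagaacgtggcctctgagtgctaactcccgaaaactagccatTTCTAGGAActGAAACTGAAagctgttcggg
Ifi47, chr11:49076487-49076572, plus strand: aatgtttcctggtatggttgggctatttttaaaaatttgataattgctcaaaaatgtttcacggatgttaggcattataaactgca
Tgtp1, chr11:48992261-48992346, minus strand: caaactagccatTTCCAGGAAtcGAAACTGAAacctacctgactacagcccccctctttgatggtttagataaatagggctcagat
Tgtp2, chr11:49064227-49064312, minus strand: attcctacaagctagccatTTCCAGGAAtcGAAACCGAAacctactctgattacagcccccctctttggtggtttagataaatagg

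A GAS match followed after 2 bases by an ISRE match stood in the windows of Igtp, Irgm2, Tgtp1 and Tgtp2. Only 8 of 32851 windows (0.0244%) held that arrangement and the other 4 belonged to Adar, Gm12185, LOC115488470 and Olfr382. Gm12185 is itself a locus with sequence of this family and overlaps Tgtp1 on the same strand. Whether the windows of Gm12185 and Tgtp1 hold the same site was not tested. Irgm1 held 2 overlapping ISRE matches and no GAS match, and the Ifi47 window held neither. An ISRE match was present in 8.56% of all windows and a GAS match in 8.3%. The E-box CACGTG, the sequence bound by BMAL1 with CLOCK, was in none of the 6 windows and in 7.15% of all windows. A match is a description of letters and not a measured binding site. Only the RefSeq start was searched, so elements at another start of the same gene would be missed.

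On the build of the files (mm10), Irgm1 (ENSMUSG00000046879) lay on chr11:48861968-48871683, minus strand, and Irgm2 (ENSMUSG00000069874) on chr11:58199618-58222782, plus strand. Igtp (ENSMUSG00000078853, chr11:58199556-58207591, plus strand) overlapped the first part of the interval of Irgm2, and the exons of both shared 162 bases, 8.01% of the Igtp gene model. Tgtp1 (ENSMUSG00000078922, chr11:48985327-48994172, minus strand), Tgtp2 (ENSMUSG00000078921, chr11:49057194-49064206, minus strand) and Ifi47 (ENSMUSG00000078920, chr11:49076587-49096974, plus strand) formed a second cluster with Irgm1. Iigp1 (ENSMUSG00000054072) was the member on another chromosome, at chr18:60376029-60392627, plus strand.

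Not all members could be counted independently. Of all 100-base stretches of the Tgtp1 model, 70.28% also occurred in Tgtp2, and 76.79% of those of Tgtp2 occurred in Tgtp1, so the division of reads between them is uncertain. In the LPS libraries Tgtp2 held 7.26 to 25.7 times as many counts as Tgtp1. Igtp shared 5.16% of its stretches with Irgm2. Ifi47 shared 217 exonic bases (8.77%) with Olfr56 and Gm12188, and Tgtp1 shared 223 (6.96%) with Gm12185.

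The libraries held 13469262 to 28288923 gene counts (median 19951421). Replicates of 1 group differed by more than counting noise in all 72 pairs compared. Summed macrophage markers were at 3513 to 8577 CPM (counts scaled to library size, by trimmed-mean factors over all 36 libraries) in every library, with neutrophil markers at 321 to 1011 CPM, in which S100a8, S100a9, Mpo, Elane, Camp and Ltf were detected in every library and Ly6g reached at most 0.58 CPM, and fibroblast markers at 271 to 1449 CPM. Bmal1 itself (row Arntl) was counted over the whole transcript, at 7.27 to 12.9 CPM in WT and 2.13 to 10.7 CPM in KO. The KO against WT difference for Arntl was not called in vehicle (log2 fold change −0.34, SE 0.26, adjusted p = 1) or LPS (−0.45, SE 0.34, adjusted p = 0.986, edgeR quasi-likelihood test with Benjamini-Hochberg adjustment), and 12 of the 24 KO libraries, from 5 of the 6 replicates, lay at or above the lowest WT library, among them all 4 of KO replicate 2 (7.74 to 10.7 CPM).

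Some KO libraries stood apart in this family. The ratio of Igtp to Irgm2 counts lay at 0.707 to 1.09 in 16 libraries without LPS and at 1.45 to 1.97 in 15 libraries with LPS, whereas the 4 libraries of KO replicate 6 spanned 1.47 to 3.20 and KO replicate 5 with LPS and CCM reached 2.47. The related gene 9930111J21Rik1, a locus with sequence of this family, was at 0 to 0.852 CPM in KO replicate 6. With LPS and CCM it was at 2.33 CPM in KO replicate 2 and 1.41 CPM in KO replicate 5, against 9.58 to 11.7 CPM in replicates 1, 3 and 4. The fits for LPS and for CCM in KO are therefore also given, for the members these libraries touch most, without some or all of them, and what sets them apart was not tested.

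**Figure D1:**
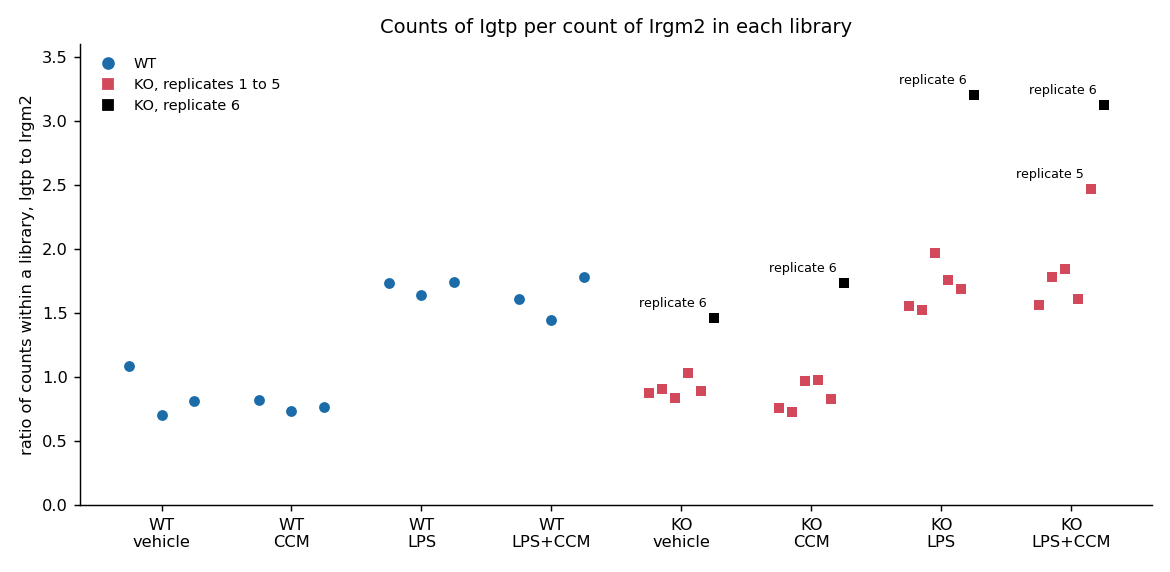
Ratio of Igtp to Irgm2 counts in each of the 36 libraries, by group. Most libraries without LPS sit between 0.707 and 1.09 and most libraries with LPS between 1.45 and 1.97, and the libraries of KO replicate 6 lie above the others of their group.

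In unstimulated WT cells the 4 genes Igtp, Ifi47, Irgm1 and Irgm2 were already transcribed, while Iigp1, Tgtp1 and Tgtp2 were close to the limit of detection. Per kilobase of gene length (FPKM, here CPM divided by gene length), mean vehicle levels were 6.68 for Igtp, 5.70 for Ifi47, 5.19 for Irgm1 and 4.29 for Irgm2, against 0.128 for Tgtp2, 0.127 for Iigp1 and 0.0146 for Tgtp1. Under LPS the order was Ifi47 (298.6 FPKM), Igtp (195), Irgm1 (99.9), Irgm2 (62.6), Tgtp2 (46.0), Iigp1 (45.7) and Tgtp1 (2.86). The ranges of Tgtp2 and Iigp1 overlapped in both states. In KO cells the order under LPS was the same, with means of 295 FPKM for Ifi47, 205 for Igtp and 40.5 for Iigp1.

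Summed over the 7 genes, the family went in level from 22.1 ± 1.17 FPKM (SD, n = 3) in WT vehicle to 750.5 ± 21.3 with LPS, and stood at 497.5 ± 10.1 with LPS and CCM. The KO sums were 23.6 ± 2.98 (n = 6), 739 ± 64.5 and 535 ± 46.5 FPKM. The effector Iigp1 made up 0.575% of the WT sum in vehicle, 6.10% with LPS and 4.35% with LPS and CCM, and in KO 0.888%, 5.48% and 3.43%. Ifi47 made up 25.7%, 39.8% and 41.0% of the WT sum. These shares describe the means and were not tested.

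**Figure D2:**
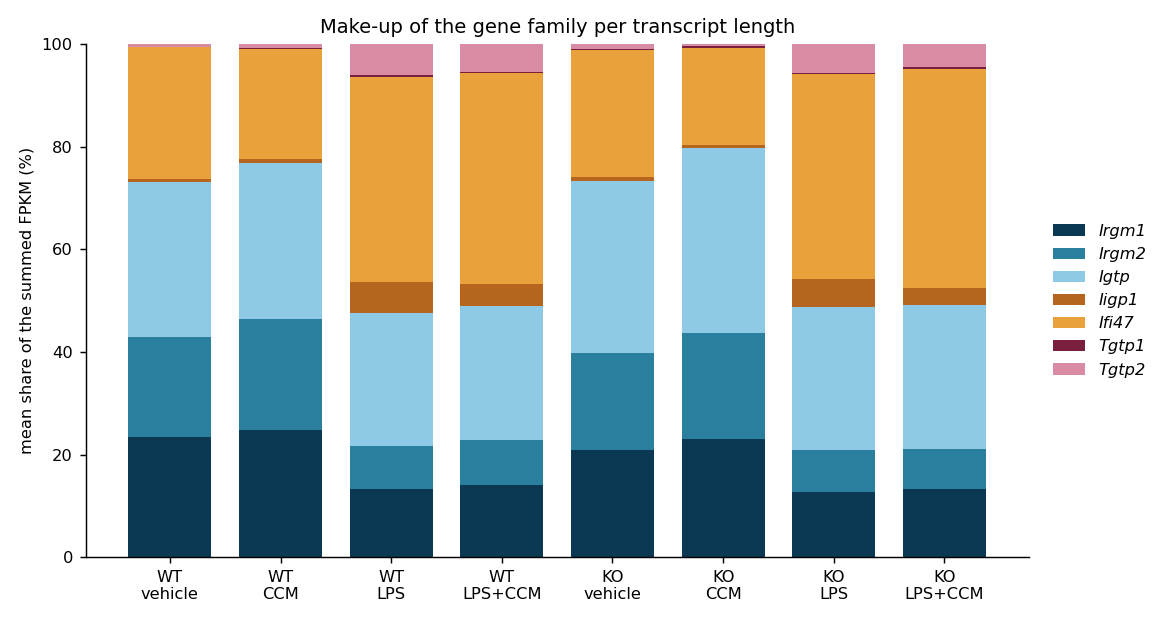
Mean share of each member in the summed FPKM of the 7 genes, as stacked bars from 0 to 100% for the 8 groups (3 WT or 6 KO libraries each). Ifi47 takes 25.7% of the WT sum in vehicle and 39.8% with LPS, and Iigp1 goes from 0.575% to 6.10%.

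LPS raised every member in WT cells and in KO cells (edgeR quasi-likelihood test, adjusted p at or below 0.05, 7 of 7 in each). In comparison, 30.6% of genes tested were called higher with LPS in WT and 22.4% in KO. The regulator Irgm1, required for resistance to several intracellular bacteria, lay at 30.2, 30.6 and 29.7 CPM in the WT vehicle libraries and at 577, 575 and 589 CPM in the LPS libraries. All LPS libraries were far above all vehicle libraries, as in 31.4% of all genes, and the log2 fold change was 4.27 (SE 0.06), or 19.3-fold.

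Irgm2, a regulator found at the Golgi, lay at 13.9, 17.9 and 15.7 CPM in vehicle and 227, 232 and 234 CPM with LPS, which is a 14.7-fold rise and the smallest of the family. Igtp, a regulator at the endoplasmic reticulum, rose 29.3-fold, from 15.1, 12.7 and 12.7 CPM to 395, 380.4 and 407 CPM. Among the effectors, Ifi47 rose 52.9-fold, from 14.1, 16.0 and 12.2 CPM to 733, 724 and 759 CPM. It was thus at vehicle levels like those of the regulators, yet higher than any of them under LPS.

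The other effectors rose from almost nothing. Iigp1, a GTPase that coats parasite vacuoles, was at 0.331, 0.441 and 0.418 CPM in WT vehicle and at 151, 134 and 144 CPM with LPS, and the ratio of the groups was 359 (95% exact counting interval 255 to 522). Tgtp2 went from 0.331, 0.441 and 0.358 CPM to 116, 134 and 155 CPM (ratio 370, interval 260 to 544). Tgtp1 had 1, 1 and 2 counts in the vehicle libraries and 9.50, 8.97 and 8.98 CPM with LPS (ratio 190, interval 73.8 to 699.7). The intervals cover counting error only and are wide because so few reads were present before the stimulus.

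In KO cells the regulators rose by amounts near those in WT, while the ratios of the near-silent effectors were lower than in WT, a difference taken up below with its test. Irgm1 went from 23.7 to 33.8 CPM (median 29.8) in vehicle to 486 to 614 CPM (median 552) with LPS, which is 19.0-fold. Irgm2 went from a median of 16.7 CPM (range 11.4 to 19.4) to 214 CPM (167 to 269), and Igtp from 16.1 CPM (13.5 to 17.7) to 407 CPM (353 to 534). No KO vehicle library reached any KO LPS library in these 3 regulators, and 14.6% of all genes were wholly above in the same way.

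Among the effectors in KO cells, Ifi47 went from a median of 15.4 CPM (10.8 to 17.9) to 771 CPM (615 to 786), 49.9-fold. Iigp1 went from 0.632 CPM (0.420 to 1.11) to 128 CPM (104 to 149.5), with a group ratio of 192 (counting interval 156 to 239), and Tgtp2 from 0.717 CPM (0.233 to 1.12) to 125 CPM (77.8 to 139.5), with a ratio of 172 (141 to 213). Tgtp1, at 0 to 5 counts in vehicle, reached 5.30 to 10.6 CPM (ratio 97.7, interval 54.3 to 196.5). Leaving out KO replicate 6 gave log2 fold changes of 4.62 for Igtp, 7.48 for Tgtp2 and 7.59 for Iigp1, against 4.70, 7.40 and 7.54 with it, and all 7 remained called.

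**Figure D3:**
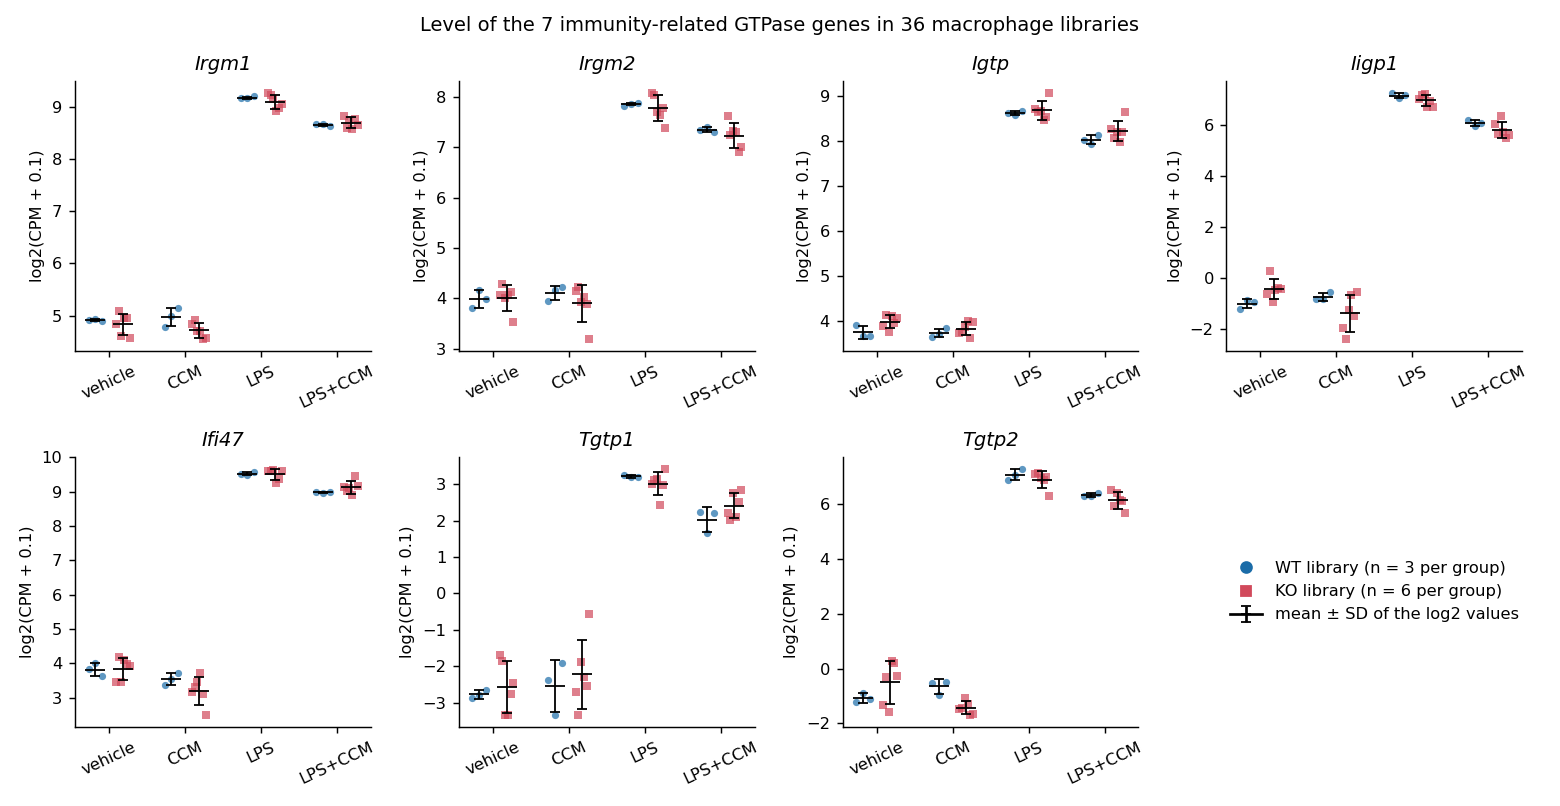
Level of each member in every library, as log2(CPM + 0.1), by genotype and treatment, with group mean and SD (3 WT or 6 KO libraries per group). In each panel the LPS groups lie far above the groups without LPS, and the WT libraries with LPS and CCM lie below those with LPS alone.

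The scaling of libraries bears on the background of these calls more than on the members. With total counts in place of trimmed-mean factors, the median log2 fold change of all genes went from −0.05 to −0.47 for LPS in WT, and calls went from 4441 higher and 4698 lower to 2551 and 8060. In KO they went from 3060 and 3373 to 1825 and 5708. Apart from scaling, a fit with the replicate number as a block gave 4656 higher and 5118 lower in KO. The members remained called, 7 of 7 in each genotype.

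CCM without LPS left the 3 regulators near their vehicle levels, and no member was called in either genotype. Across all genes 0.057% were called in WT and 0% in KO, where 333 of 13799 genes were under an unadjusted p of 0.05 in edgeR. These counts depended on the tool: DESeq2 called 247 genes in WT and 24 in KO, and in KO voom called 299, edgeR with replicate 6 left out 141, and edgeR with the replicate number as a block 429. Of the members, 0 of 6 tested in WT and 2 of 5 tested in KO were under an unadjusted p of 0.05, and DESeq2 and voom called 0 in both. Tgtp1 was left untested in both genotypes, and Tgtp2 in KO, because edgeR's filter removed them for low counts.

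The regulators' intervals bound the difference that CCM could have made without LPS. For Irgm1 in WT the CCM libraries lay at 27.5, 31.9 and 35.2 CPM, on both sides of vehicle, and the log2 difference was 0.05 (95% interval −0.16 to 0.26). In KO the Irgm1 levels were 23.4 to 30.0 CPM (median 26.0), with a log2 difference of −0.12 (−0.36 to 0.12). Igtp differed by −0.03 in WT (−0.28 to 0.21) and by −0.15 in KO (−0.39 to 0.09), and Irgm2 by 0.11 in WT and −0.10 in KO.

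The effectors were less tightly bounded. Ifi47 lay at 10.2, 11.6 and 13.01 CPM with CCM in WT, overlapping vehicle (log2 difference −0.29, interval −0.59 to 0.01). In KO it lay at 5.59 to 12.95 CPM (median 9.29), lower than the same-numbered vehicle library in 5 of 6, and the log2 difference of −0.63 (SE 0.20) had an edgeR Benjamini-Hochberg adjusted p of 0.9999. Here libraries of equal number deviated together. A fit with that number as a block gave −0.61 for Ifi47 with an edgeR adjusted p of 0.0466, or −0.50 and 0.0355 when replicate 6 was also left out. Those fits called 1.7% and 2.78% of all genes lower.

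Iigp1 stood higher with CCM in WT and lower in KO without LPS, a difference between genotypes that was not tested. In WT the CCM libraries, at 0.459, 0.462 and 0.576 CPM, all lay above vehicle, as did 9.19% of all genes (log2 difference 0.32, interval −0.50 to 1.14). In KO they lay at 0.0902 to 0.581 CPM (median 0.280), below the same-numbered vehicle library in 6 of 6 (log2 difference −1.09, interval −1.99 to −0.19, edgeR adjusted p 0.9999). That KO difference was −0.69 without replicate 2 and −1.33 without replicate 6. Tgtp2 in WT lay at 0.596, 0.416 and 0.617 CPM with CCM (0.52, interval −0.32 to 1.36). All these levels were under 1.2 CPM, so each rests on few reads.

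CCM given together with LPS lowered every member in WT cells. All 7 were called lower (edgeR quasi-likelihood test with Benjamini-Hochberg adjustment), against 7.78% of all genes tested, and in each of the 7 all LPS and CCM libraries lay below all LPS libraries, which held for 14.0% of genes. The mean with CCM stood at 44.2% to 70.6% of the mean with LPS alone. Most strongly induced genes were affected likewise: of the 303 other genes that LPS raised in KO cells by at least the log2 fold change of the least raised member there (3.75), 184 (60.7%) were called lower with CCM in WT, with a median of −0.47 and a negative sign in 89.4%.

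The 3 regulators fell by similar amounts. Irgm1 lay at 406.5, 410.3 and 399 CPM with LPS and CCM, 69.8% of its LPS mean (log2 fold change −0.52, SE 0.04, adjusted p = 5.04e-05). Irgm2 lay at 163, 169 and 157 CPM, 70.6% (−0.50, SE 0.05, adjusted p = 9.73e-05). Igtp lay at 262, 245 and 279.6 CPM, 66.6% (−0.59, SE 0.06, adjusted p = 0.000118). The libraries of each gene were close together and well apart from those with LPS alone.

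Among the effectors the falls ranged more widely. Ifi47, the most abundant member, lay at 509, 498 and 506 CPM, 68.2% of the LPS mean (−0.55, SE 0.04, adjusted p = 4.29e-05), a fall like that of the regulators. Iigp1 lay at 74.0, 62.3 and 66.6 CPM, 47.4% (−1.08, SE 0.07, adjusted p = 2.68e-05). Tgtp2 lay at 77.4, 77.9 and 84.0 CPM, 59.1% (−0.76, SE 0.09, adjusted p = 0.000443), and Tgtp1 at 4.58, 3.03 and 4.53 CPM, 44.2% (−1.18, SE 0.17, adjusted p = 0.00154). Iigp1 and Tgtp1 thus had the lowest share of their LPS level left, although Tgtp1 was the least expressed and shares much of its sequence with Tgtp2.

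With total counts in place of trimmed-mean factors, CCM under LPS in WT gave 1539 genes higher and 733 lower, against 564 and 1057, and all 7 members remained called lower. With the replicate number as a block the counts were 1417 higher and 1803 lower, and all 7 members were called. The counts over all genes also moved with single libraries, to 216 higher and 677 lower without LPS and CCM replicate 2 and to 249 and 709 without LPS replicate 2, with all 7 members called in each. A fit on all 36 libraries, in which WT shares the spread of the KO libraries, called none of the 7 in this comparison. Summed dendritic cell markers were at 3.53 to 4.31 CPM with LPS and 2.04 to 2.50 CPM with LPS and CCM in WT (4 genes, 0 of 2 tested called). Neutrophil markers were at 390 to 433 and 331 to 397 CPM (7 genes, 1 of 6 tested called lower), and macrophage markers at 7708 to 8016 and 7877 to 8188 CPM (7 genes, 1 higher and 2 lower). Their part in the result was not tested. In bulk RNA fewer cells of a type and less RNA per cell cannot be told apart.

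**Figure D4:**
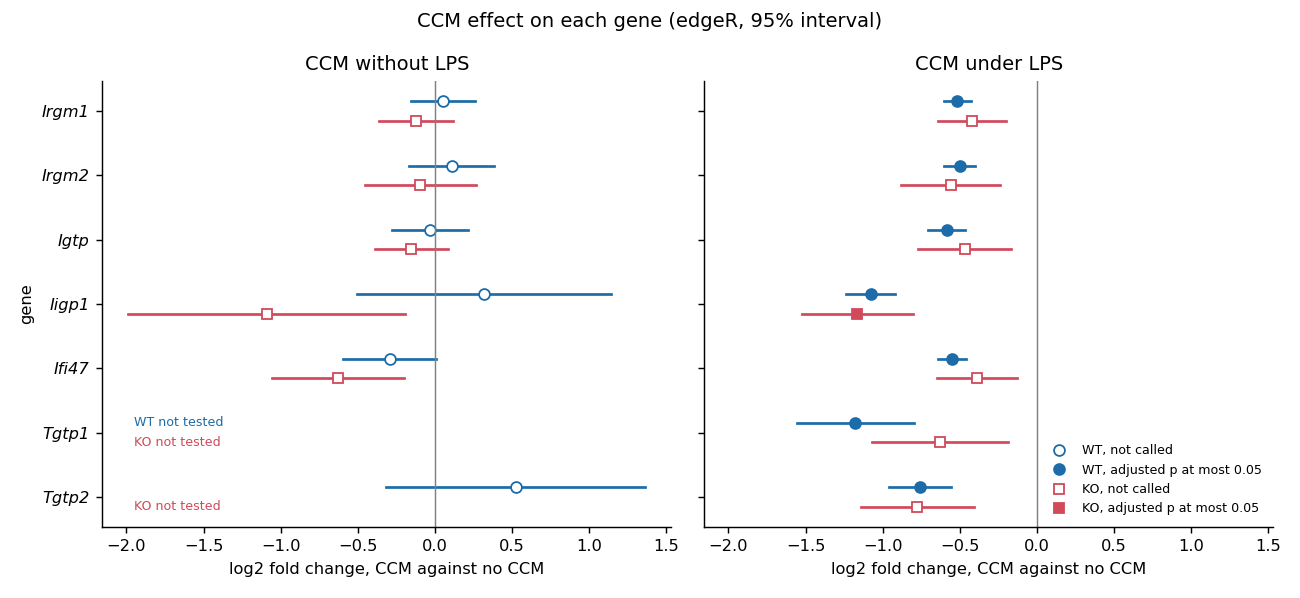
Log2 fold change with CCM, with its 95% interval, for each member, without LPS and under LPS in WT and KO (3 against 3 or 6 against 6 libraries). Filled points were called at an adjusted p of 0.05, open points were not: all 7 under LPS in WT are filled and lie below 0, and under LPS in KO Iigp1 alone is filled.

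In KO cells the same treatment gave negative fold changes for all 7 members, but only Iigp1 passed the test, beside 0.105% of all genes called lower. Each of the 7 was under an unadjusted p of 0.05 in edgeR, as were 1070 of all 13386 genes tested. DESeq2 called 4 members, beside 0.973% of all genes lower, and voom called 7, beside 3.71%. Against the same-numbered LPS library, the library with CCM was lower in 6 of 6 for every member but Ifi47, with 5 of 6. Blocking on that number, edgeR called all 7 lower, beside 4.14% of all genes. Libraries of equal number did not all deviate together here (correlations −0.102 to 0.813), so the unblocked fit is kept as the main one. Iigp1 lay at 104 to 149.5 CPM (median 128) with LPS and 44.3 to 81.2 CPM (median 51.4) with LPS and CCM, 45.1% of the LPS mean, with no overlap between the groups (log2 fold change −1.16, SE 0.17, adjusted p = 0.0179). The value stayed between −1.09 and −1.20 without replicate 1 (adjusted p = 0.120), 2 (0.215), 4 (0.112) or 5 (0.115), none of which passed the threshold with 5 libraries a group, and the call was kept without replicate 3 (0.0334) or 6 (0.00758), where leaving out replicate 6 raised the share of all genes called lower to 0.953%.

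The other effectors in KO cells had intervals below 0 yet missed the threshold over all genes. Tgtp2 lay at 51.4 to 92.2 CPM (median 69.5) with LPS and CCM, 59.1% of the LPS mean (−0.78, SE 0.17, edgeR adjusted p = 0.0984). Tgtp1 lay at 3.97 to 7.07 CPM (median 5.09), 65.5% (−0.63, SE 0.20, adjusted p = 0.354). Both groups of each gene overlapped.

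Ifi47 lay at 475 to 704 CPM (median 557) with LPS and CCM in KO, 77.3% of the LPS mean (−0.39, SE 0.12, edgeR adjusted p = 0.313). The groups overlapped, and the highest library with CCM, at 704.1 CPM, was replicate 5, one of the libraries that stood apart.

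The KO regulators were likewise not called. Irgm1 lay at 383 to 456 CPM (median 416) with LPS and CCM, wholly below the LPS libraries, at 75.5% of their mean (−0.42, SE 0.10, edgeR adjusted p = 0.134), where 0.636% of all genes were wholly below. Irgm2 lay at 120 to 196 CPM (median 154), 68.7% (−0.56, SE 0.15, adjusted p = 0.200). Igtp lay at 253 to 399 CPM (median 296), 73.1% (−0.47, SE 0.14, adjusted p = 0.290). Irgm2 and Igtp overlapped between the groups.

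Without the 4 KO libraries that stood apart under LPS (replicate 6 with LPS, and replicates 2, 5 and 6 with LPS and CCM, left out after their values were seen), 5 of 7 members were called lower, beside 2.06% of all genes. Under this choice Iigp1 was at −0.97 (adjusted p = 0.00877), Tgtp2 at −0.64 (0.00792), Igtp at −0.45 (0.0159), Ifi47 at −0.43 (0.0333) and Irgm1 at −0.38 (0.0450), while Irgm2 (−0.43, 0.0663) and Tgtp1 (−0.59, 0.154) were not called (edgeR). Among 342 other genes raised by LPS in WT no less than the least raised member there (a log2 fold change of 3.87), 8 (2.34%) were called lower with CCM in KO in the full set of libraries, with a median of −0.45 and a negative sign in 83.0%.

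The interaction between LPS and CCM asks whether CCM acted differently with and without LPS. In WT it was called negative for the 3 regulators and for Iigp1, that is 4 of 7, against 2.09% of all genes called in either direction. The values were −0.58 (SE 0.09, edgeR adjusted p = 0.00680) for Irgm1, −0.63 (SE 0.12, 0.0145) for Irgm2, −0.57 (SE 0.11, 0.0160) for Igtp and −1.42 (SE 0.28, 0.0190) for Iigp1. Ifi47, whose level without LPS also tended lower with CCM, was at −0.28 (SE 0.12, 0.320), Tgtp2 at −1.31 (SE 0.35, 0.0742) and Tgtp1 at −1.99 (SE 0.88, 0.305), which moved to −1.125 without WT replicate 3 with CCM.

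With fewer libraries some of these 4 passed the threshold no longer, at values of similar size. Without WT replicate 3 with CCM, Igtp was at −0.51 (edgeR adjusted p = 0.0517) and Iigp1 at −1.29 (0.109), and without WT replicate 1 in vehicle Iigp1 was at −1.31 (0.0549). Over all genes the interaction in WT gave 69 higher and 239 lower calls, or 230 and 117 with total counts, under which 4 members were called. Single libraries moved these counts too, to 22 and 127 without WT replicate 3 with LPS and CCM, and to 18 and 134 without replicate 2. DESeq2 called 5 members, beside 8.84% of all genes it tested, and voom 3, beside 3.03%.

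In KO no member's interaction was called and 0.00685% of genes were (1 of 14588, with 536 under an unadjusted p of 0.05, and 12 called by DESeq2). None of the 7 members was under an unadjusted p of 0.05 in edgeR, with 3 in DESeq2 and 2 in voom. Values were −0.28 for Irgm1 (interval −0.57 to 0.00), −0.45 for Irgm2 (−0.90 to 0.01), −0.30 for Igtp (−0.65 to 0.06) and −0.03 for Iigp1 (−0.83 to 0.76). Tgtp1 was at −1.36 (−3.09 to 0.38), and 2 effectors had positive values, Ifi47 at 0.255 (−0.21 to 0.72) and Tgtp2 at 0.54 (−0.28 to 1.37). Without replicate 6 the regulators were at −0.26, −0.50 and −0.28, Iigp1 at 0.17, Ifi47 at 0.15, Tgtp1 at −0.64 and Tgtp2 at 0.49, again with none called. Ifi47 was at 0.099 without replicate 5, and Tgtp2 at 0.33 without replicate 4 or without replicate 5.

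To compare members with each other, the log2 ratio of every pair of members was compared between LPS with CCM and LPS alone, in 21 pairs per genotype, with an exact two-sided permutation test over libraries, chosen after the levels were seen. In KO 3 pairs were called, all with Iigp1: the ratio of Irgm1 to Iigp1 was higher with CCM by 0.76 (p = 0.00217, adjusted over the 21 pairs 0.0303, exact permutation), that of Irgm2 to Iigp1 by 0.62 (p = 0.00433, adjusted 0.0303, exact permutation), and that of Iigp1 to Ifi47 lower by 0.79, at −0.79 (p = 0.00433, adjusted 0.0303, exact permutation). Iigp1 thus fell relative to 2 regulators and to Ifi47 in this unpaired test. With the replicate number as a block no pair was called (smallest adjusted p 0.0729, exact permutation), where that p cannot go below 0.03125 before adjustment. None of the 3 pairs stayed called when any one of replicates 1 to 5 was left out, while 7 pairs were called without replicate 6. With 5 libraries against 5 the exact permutation p cannot go below 0.00794, and 3 pairs alone cannot then pass after adjustment. The losses therefore do not show whether the ratios changed.

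In WT the ratio of Irgm1 to Iigp1 was higher with CCM by 0.56 and that of Iigp1 to Ifi47 lower, at −0.53. With 3 libraries against 3 an exact two-sided permutation p cannot go below 0.1, so no WT pair could be called. The values in WT and KO had the same sign for these 3 pairs.

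Between the KO and WT libraries no difference in the levels of the family was called. Arntl itself was not called either, as given above, so these values compare the labelled genotypes. KO against WT called 0% of genes in vehicle and 0% with LPS (edgeR, with 118 of 14385 and 105 of 13794 genes under an unadjusted p of 0.05, and 1 called by DESeq2 in each). For the members 0 of 6 tested in vehicle and 0 of 7 with LPS were under an unadjusted p of 0.05, and DESeq2 and voom called none. With LPS the log2 differences were −0.08 for Irgm1 (95% interval −0.30 to 0.15), −0.06 for Irgm2 (−0.39 to 0.27), 0.08 for Igtp (−0.22 to 0.37), −0.18 for Iigp1 (−0.47 to 0.12) and −0.02 for Ifi47 (−0.25 to 0.22). Without KO replicate 6, Igtp was at −0.01 and Irgm2 at 0.01.

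In vehicle the KO libraries were spread around the WT ones for Irgm1 (−0.06, interval −0.35 to 0.23), Irgm2 (0.06, −0.30 to 0.41) and Ifi47 (0.06, −0.38 to 0.50). The third regulator, Igtp, had a higher KO mean (15.9 against 13.5 CPM), with a log2 difference of 0.25 (−0.04 to 0.55, not called). The near-silent effectors also had higher KO means, with log2 differences of 0.75 for Iigp1 (−0.02 to 1.53) and 0.90 for Tgtp2 (−0.28 to 2.08, adjusted p of 1 for both in edgeR). The Arntl levels given above bear on how far these libraries differ in Bmal1 transcript.

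The genotype by LPS interaction, which compares the size of the LPS response between genotypes, was negative in all 7 members and called in 0, beside 0% of all genes (112 of 15093 under an unadjusted p of 0.05, 0 called by DESeq2). Of the members, 2 were under an unadjusted p of 0.05 in edgeR, Iigp1 at −0.91 (interval −1.56 to −0.27) and Tgtp2 at −1.06 (−2.08 to −0.04), and DESeq2 and voom called 0. These 2 genes had the higher KO means in vehicle, and their KO against WT differences with LPS were −0.18 and −0.16. For Irgm1 the value was 0.00 in size (−0.33 to 0.33), and its sign depended on the setting.

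Whether the fall with CCM under LPS differed between genotypes was tested directly, and no difference was called in any member or gene (0%, with 72 of 14546 genes and 0 of 7 members under an unadjusted p of 0.05 in edgeR, and 0 called by DESeq2 and voom). The KO minus WT difference in the CCM effect was 0.11 for Irgm1 (interval −0.18 to 0.41), −0.04 for Irgm2 (−0.50 to 0.41), 0.13 for Igtp (−0.30 to 0.57), −0.07 for Iigp1 (−0.58 to 0.44), 0.18 for Ifi47 (−0.18 to 0.54), 0.57 for Tgtp1 (−0.11 to 1.24) and 0.00 for Tgtp2 (−0.54 to 0.54). So 7 calls in WT and 1 in KO do not show different effects, and the intervals leave room for differences of up to about the size of the WT effect in several members.

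The genes around this family in the interferon pathway were read from a fixed list. In WT, LPS raised 17 and lowered 1 of 20 tested, beside 30.6% of all genes raised, and in KO 16 and 1 of 19, beside 22.4%. Ifnb1, the type I interferon itself, had 0 counts in the 3 WT vehicle libraries and 105 in the LPS libraries. Ifng, the gene of interferon gamma, was also called higher with LPS in WT (log2 fold change 6.31, SE 0.81, edgeR adjusted p = 4.33e-05). The transcription factor Irf1 rose by 3.26 on the log2 scale, the receptor kinase Jak2 by 3.59 and Usp18, which dampens receptor signalling, by 7.45. Ifngr1, a chain of the interferon gamma receptor, was the 1 gene lowered (−0.93).

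With CCM under LPS in WT, 8 of these 20 were called lower and 1 higher, beside 7.78% of all genes lower. Ifnb1 went from 1.64 ± 0.33 CPM (SD, n = 3) with LPS to 0.367 ± 0.108 CPM with LPS and CCM (−2.14, edgeR adjusted p = 0.00322), on 105 and 20 counts. Irf1 fell by 0.82, Usp18 by 0.64, Stat2 by 0.32, Tyk2 by 0.32 and Jak2 by 0.23, and Ifngr1 was the gene called higher (0.33). Irf9 (−0.12), Ifnar1 (0.06) and Ifnar2 (0.03) were not called, nor was Ifng (−1.19, SE 0.47, edgeR adjusted p = 0.132).

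In KO under LPS none of the 20 was called with CCM in edgeR, and 18 had a negative sign. Ifnb1 was at 1.82 ± 0.961 CPM with LPS and 0.758 ± 0.282 CPM with LPS and CCM (n = 6, log2 fold change −1.26, edgeR adjusted p = 0.271). Irf1 was at −0.67 (edgeR adjusted p = 0.190) and Ifng at −1.51 (0.378). In the WT interaction, Irf1 (−0.60) and Tyk2 (−0.40) were called. The median over this list was −0.22 in WT and −0.25 in KO, beside −0.59 and −0.56 for the 7 members and 0.01 and 0.00 for all genes.

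Guanylate-binding proteins, the other large family of interferon-induced GTPases, act on the same vacuoles. For these and the related loci below, the shares of all genes were 30.6% raised by LPS in WT and 22.4% in KO, and with CCM added to LPS 7.78% fell in WT and 0.105% in KO. LPS raised 11 of 11 in WT and 10 of 10 tested in KO, and CCM under LPS lowered 9 of 11 in WT, with Gbp10 (−1.54) and Gbp11 (−1.14) the most, and 0 of 11 in KO by edgeR, where 11 of 11 had a negative sign. Their median with CCM under LPS was −0.60 in WT and −0.79 in KO. Other loci with sequence of the immunity-related GTPase family had 10 of 11 raised by LPS in WT and 8 of 11 in KO. With CCM under LPS, 8 of 11 were lower in WT, among them Gm5431 (−0.59), Gm4070 (−0.57) and 9930111J21Rik1 (−0.66), and 0 of 11 were called in KO by edgeR, where 11 of 11 had a negative sign. Their median was −0.64 in WT and −0.93 in KO. The KO median includes loci, such as 9930111J21Rik1, that were low in the libraries that stood apart.

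The LC3 and GABARAP conjugation genes, which guide these GTPases to their target membranes, were called in both directions, in shares near those of all genes for LPS in WT (30.6% higher). As background for this list and the next, LPS raised 4441 and lowered 4698 of all 14501 genes tested in WT. In KO it raised 3060 and lowered 3373 of 13648. With CCM under LPS, 564 were higher and 1057 lower of 13579 in WT, and 1 higher and 14 lower of 13386 in KO. Of 12, LPS raised 4 and lowered 5 in WT and raised 2 and lowered 4 in KO, and CCM under LPS in WT called Atg5 (0.28) and Gabarapl1 (0.23) higher and none lower. Of 8 genes for ubiquitin marking of vacuoles and its adaptors, LPS raised 6 and lowered 2 in WT and raised 5 and lowered 2 in KO. With CCM under LPS in WT, 3 were lower, with Trim21 (−0.75) and Rnf213 (−0.37) the most, and the adaptors Nbr1 (0.42) and Calcoco1 (0.40) were higher. No gene of either list was called in KO with CCM under LPS.

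Across the 36 libraries the log2 CPM of the members moved together, with Pearson correlations of 0.959 to 0.996 (median 0.991) over the 21 pairs. The points share libraries and the LPS step, so these values mostly restate the response to LPS. After each library's group mean was taken off, the correlations lay between −0.44 and 0.645 (median 0.299). Among the 15720 genes with enough counts over the 36 libraries, the non-members most like the members on average were Slfn5 (0.992), Casp4 (0.991), Rsad2 (0.991), Gbp6 (0.991) and Samhd1 (0.991). After taking off group means they were Rsad2 (0.445), Mx1 (0.420), Usp18 (0.407), Ifit1 (0.406) and Cmpk2 (0.388), all known as interferon-induced genes.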

How the data were processed

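RNA was captured by poly(T), sequenced in paired ends and processed by the authors with fastp, HISAT2 2.0.5 (build mm10) and featureCounts 1.5.0-p3. The authors deposited whole-number counts per gene, and whether counting used strand is not given in the sources used here. None of the 36 count columns was left without a sample (0 unmatched). Libraries held 13469262 to 28288923 counts.

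Each comparison was fitted with edgeR 4.0.16 (R 4.3.3, limma 3.58.1) on its own groups after filterByExpr and trimmed-mean scaling, by the quasi-likelihood test. Benjamini-Hochberg adjustment ran over all genes tested, and a call needed an adjusted p at or below 0.05. Intervals are 95% from the t quantile. CPM used trimmed-mean factors over 36 libraries, and FPKM is CPM per kilobase of the deposited gene length. Fits were tested on simulated counts.

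All 7 members, Arntl, related loci at 1 CPM or more, 16 interferon genes, and up to 2 called genes per direction of 3 other lists could be named. The members and lists were chosen with earlier results of these data known. The study calls the macrophage samples biological replicates from female mice, but the labels do not say which libraries share an animal, so p-values measure the spread between these libraries.

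Same-numbered libraries deviated together (every correlation over 0.1) for LPS in KO (0.300 to 0.830), CCM without LPS in KO (0.337 to 0.839) and CCM under LPS in WT (0.152 to 0.360), and blocked fits are given there where a call changed. Alternatives were DESeq2 1.42.0, voom with quality weights, other scalings, no low-count filter, all 36 libraries, the block, and each replicate left out.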

Additional observations from a re-analysis of the deposited data

Results flagged for a closer look

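Of 28 KO groups of 6 libraries (7 members by 4 treatments), 5 held a library whose gap to its nearest neighbour took up more of the group's range than the 0.625 bar, and chance alone gives about 1 in 20 groups. Of these, 4 concern KO replicate 6. Igtp was highest in replicate 6 with LPS, at 534.3 CPM (gap 0.644 of the range), and with LPS and CCM, at 398.6 CPM (0.633). Tgtp2 was lowest in replicate 6 with LPS, at 77.75 CPM (0.652), and Tgtp1 highest in replicate 6 with CCM, at 0.5811 CPM (0.703), on few counts. Iigp1 in vehicle was highest in KO replicate 2, at 1.112 CPM (0.6695).

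The effect of CCM in WT differed between cells with and without LPS by the interaction test in 4 members, beside 2.09% of all genes. The values were −0.5817 for Irgm1, −0.6257 for Irgm2, −0.5696 for Igtp and −1.415 for Iigp1 on the log2 scale. Igtp and Iigp1 lost the call when some single libraries were left out, as given above. A fit on all 36 libraries called 0 genes in this interaction. Without LPS, Iigp1 was higher in all 3 WT libraries with CCM than in all 3 with vehicle, and lower with CCM in 6 of 6 same-numbered KO libraries (log2 difference in KO −1.091, or −0.69 without KO replicate 2), and this difference between genotypes was not tested.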

How the results depend on the processing

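The 7 calls for LPS held in each genotype under every alternative run, and the 7 for CCM under LPS in WT under all but the fit on all 36 libraries, which called 0 there and 0 rather than 4 in the WT interaction. For CCM under LPS in KO the count of 1 became 4 with DESeq2, 7 with voom, 0 with total counts, 5 with all 36 libraries, 7 with the replicate block, 4 with the block and without replicate 6, 5 without 4 libraries, and 0 to 3 with single replicates left out. The share of all genes called lower moved too, from 0.105% to 0.973%, 3.71%, 0.0747%, 0.878%, 4.14%, 1.77% and 2.06% in the order of these settings, and to 0% to 0.953% with single replicates left out. The WT interaction ranged from 2 to 5 with single libraries left out, while calls over all genes ranged from 149 of 15104 to 295 of 15028. For CCM without LPS in KO, the replicate block gave 1 call instead of 0, also without replicate 6, beside 1.7% and 2.78% of all genes called lower. The 3 member pairs became 0 with the block and 0 to 7 with single replicates left out. The exact permutation p cannot go below 0.03125 with the block or below 0.00794 with 5 libraries a group. So few pairs cannot pass after adjustment there, and these losses do not show whether the ratios changed. In the WT interaction, whose numbers do not pair, the block called Tgtp2 as well (adjusted p = 0.0282, edgeR), beside 548 of all 14747 genes. The block changed no other count of members called. The cause of these shifts was not tested, except that leaving out libraries leaves fewer samples.

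Direction changed in 41 settings of 13 member results, none of them called and each at most 0.0752 in size as reported. With single libraries left out, CCM without LPS in WT gave −0.043 to 0.14 for Irgm1 and −0.093 to 0.054 for Igtp (voom 0.041). The KO interaction of Iigp1 gave −0.37 to 0.17 (total counts 0.028, voom 0.29, block without replicate 6 0.17). KO against WT gave −0.026 to 0.15 for Irgm2 and −0.027 to 0.16 for Ifi47 in vehicle (Ifi47 total counts −0.0041, voom −0.025), and with LPS −0.12 to 0.0083 for Irgm2, −0.012 to 0.12 for Igtp (voom −0.00061) and −0.038 to 0.027 for Ifi47. The genotype by LPS term gave −0.059 to 0.048 for Irgm1 (no filter 0.019) and −0.17 to 0.065 for Ifi47 (voom 0.028). The genotype by CCM term gave −0.081 to 0.016 for Irgm2 (voom 0.040), −0.15 to 0.0045 for Iigp1 and −0.075 to 0.090 for Tgtp2 (DESeq2 −0.014, RLE size factors −0.013, total counts −0.062, replicate block −0.012). Depth limits Iigp1, Tgtp1 and Tgtp2 without LPS.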
